A study of Homo sapiens with 90 samples.

Results

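The 10 genes described here encode enzymes that make, lengthen and desaturate fatty acids: ACLY, ACSS2, ME1, ACACA, FASN, ELOVL6, SCD, FADS1 and FADS2, together with PNPLA3, a lipid droplet protein. Members were all probe sets annotated to exactly 1 of these symbols, which gave 25 probe sets of the 54613 tested and 10 of the 19774 genes measured, with no probe set left out for a second symbol. Their transcripts were measured in A673, a Ewing sarcoma cell line, on arrays of total RNA after 24 h with imazalil, fenbuconazole or 2,4-D in 0.2% DMSO, at 9 concentrations with 3 arrays each, in steps of about 3 times between 0.001 µM and 10 µM. The vehicle groups were given DMSO alone, also at 0.2%, with 3 columns in each chemical's set of 30. Imazalil is an imidazole fungicide and fenbuconazole a triazole fungicide, both of them inhibitors of the fungal lanosterol demethylase, and 2,4-D is a phenoxyacetic acid herbicide. The study used 1 cell line, and its methods describe the replicates as separate batches of cells. In RNA of whole wells, a change in RNA per cell cannot be told apart from a change in which cells were left.

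The deposited values are log2 levels that were normalised separately for each chemical, with array medians between 2.76 and 3.46, so a level has meaning only beside others of its own set, and values set side by side across sets are changes. The labels call the DMSO arrays common to all sets. After centring, the imazalil and 2,4-D sets had DMSO columns that correlated at 0.867 to 0.878 over all probe sets where the number was the same, so these 2 sets share their vehicle arrays. A serial number in the sample descriptions is also the same for these columns in all sets. The DMSO columns of the fenbuconazole set went against these labels, with 0.105 to 0.185 against imazalil and 0.119 to 0.198 against 2,4-D. Where the replicate numbers differed, these columns had -0.120 to 0.117 against imazalil and -0.11 to 0.126 against 2,4-D. Results for fenbuconazole at 10 µM are therefore given against DMSO and also against the other 8 fenbuconazole concentrations, without DMSO. Of 8 Ewing sarcoma markers 7 had a probe set, of which 5 stood above the 90th percentile of all probe sets in every set, while 6 of 6 hepatocyte markers and 5 of 5 adipocyte markers stood below the 75th percentile. No hepatocyte or adipocyte marker was thus high in this line, although the enzymes described here are best known from liver and fat.

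Fatty acid synthesis starts from cytosolic acetyl-CoA, which ACLY releases from citrate and ACSS2 makes from acetate, and it consumes NADPH, which ME1 (malic enzyme) supplies. ACACA carboxylates acetyl-CoA to malonyl-CoA, FASN builds palmitate from it, ELOVL6 lengthens palmitate, SCD places the first double bond in saturated chains, and FADS1 and FADS2 desaturate polyunsaturated chains. In liver, most of these genes are known targets of the SREBP transcription factors, whose activation responds to sterol depletion, and of LXR, a nuclear receptor for oxysterols.

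Promoter sequence was taken from RefSeq (GRCh38.p14), which gave 13 entries for 8 of the 10 members, all but FASN and PNPLA3. SCD and FADS1 are shown because each had several probe sets that were higher at 10 µM of an azole. The 250 bases before the annotated start are printed, SCD at chr10:100346983-100347232 on the plus strand and FADS1 at chr11:61817004-61817253 on the minus strand. Capitals mark CCAAT, the box bound by NF-Y, and GGGCGG, the box bound by Sp1, each on either strand.
SCD: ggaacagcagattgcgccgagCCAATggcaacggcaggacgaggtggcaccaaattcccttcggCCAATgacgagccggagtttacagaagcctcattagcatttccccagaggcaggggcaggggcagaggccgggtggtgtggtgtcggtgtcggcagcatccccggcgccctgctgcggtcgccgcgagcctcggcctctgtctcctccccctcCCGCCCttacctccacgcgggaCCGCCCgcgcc
FADS1: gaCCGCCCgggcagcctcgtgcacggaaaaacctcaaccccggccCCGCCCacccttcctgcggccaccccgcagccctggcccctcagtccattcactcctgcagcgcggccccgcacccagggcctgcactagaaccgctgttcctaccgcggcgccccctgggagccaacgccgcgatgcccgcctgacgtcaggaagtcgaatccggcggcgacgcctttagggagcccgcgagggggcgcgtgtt
The SCD window held 2 CCAAT and 2 GGGCGG matches and the FADS1 window 2 GGGCGG matches and 0 CCAAT matches, and none of these overlapped another. CCAAT was present in 6 of the 13 member windows and in 32.0% of all 35116 promoters of the same length. GGGCGG was present in 11 of 13 and in 42.6% of all promoters. Some genes had several windows, and those of ACLY overlap, so some matches were counted more than once. By gene, CCAAT was present in 4 of 8 members and GGGCGG in 8 of 8. The sterol response motif TCACNCCAC, found in 0.883% of all promoters, and CACGTG, found in 6.34%, had no match in any of the 13 windows. A match is a stretch of letters and was not tested as a binding site.

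Most members were strongly expressed in every set. In the imazalil set, the highest-level probe set of each gene averaged 11.2 for FADS1, 11.1 for SCD, 10.9 for ME1, 10.5 for ACLY, 9.04 for ELOVL6, 8.96 for FADS2, 8.11 for ACACA, 7.39 for FASN, 6.72 for ACSS2 and 4.92 for PNPLA3 on the log2 scale over 30 columns. These values place the genes between the 65.9th percentile of all probe sets, for PNPLA3, and the 98.6th, for FADS1. Array levels also depend on the probes, so the order is of signals and not of transcript numbers. PNPLA3 varied most among the 30 columns (SD 0.25 in the imazalil set), and ACLY least (SD 0.06). The 5 probe sets of SCD averaged 8.70 to 11.1 in that set, the 3 of FADS1 10.7 to 11.2, and the lowest member probe set, ME1 211204_PM_at, averaged 2.82, under the array medians.

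At 10 µM, no member probe set passed the threshold of an adjusted p of 0.05 (limma, Benjamini-Hochberg over 54613 probe sets) with any of the 3 chemicals against DMSO, and 0% of all probe sets passed it (0 with each chemical). At an unadjusted p under 0.05, there were 2593 probe sets with imazalil, 3823 with fenbuconazole and 2105 with 2,4-D. With imazalil 10 of 10 genes were above DMSO, by 0.02 to 0.45 on the log2 scale with a median of 0.10, where 9917 of 19774 genes were above and the median was 0.00. With fenbuconazole 8 of 10 were above, with a median of 0.08 against -0.01 over all genes, and with 2,4-D 5 of 10, with a median of 0.00 against -0.01. Without imazalil replicate 2 at 10 µM the median was 0.04 with 8 of 10 genes above DMSO, and without fenbuconazole replicate 1 at 10 µM it was also 0.04, with 7 of 10 above. Leaving out DMSO replicate 1 gave 8 of 10 and a median of 0.06 with imazalil, and 7 of 10 and 0.04 with fenbuconazole. The mean log2 level of the hepatocyte markers was 3.23 to 3.35 at 10 µM imazalil, against 3.20 to 3.44 with DMSO, and that of the adipocyte markers 3.07 to 3.22 at 10 µM, against 3.10 to 3.18 with DMSO. The 6 breast epithelial markers, of which 5 stood below the 75th percentile in every set, averaged 4.17 to 4.26 on the arrays at 10 µM imazalil, against 4.04 to 4.15 on the DMSO arrays, without overlap. With fenbuconazole these 6 averaged 3.45 to 3.79 at 10 µM, against 3.48 to 3.56 with DMSO, and their part in the values of the enzymes was not tested.

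**Figure D1:**
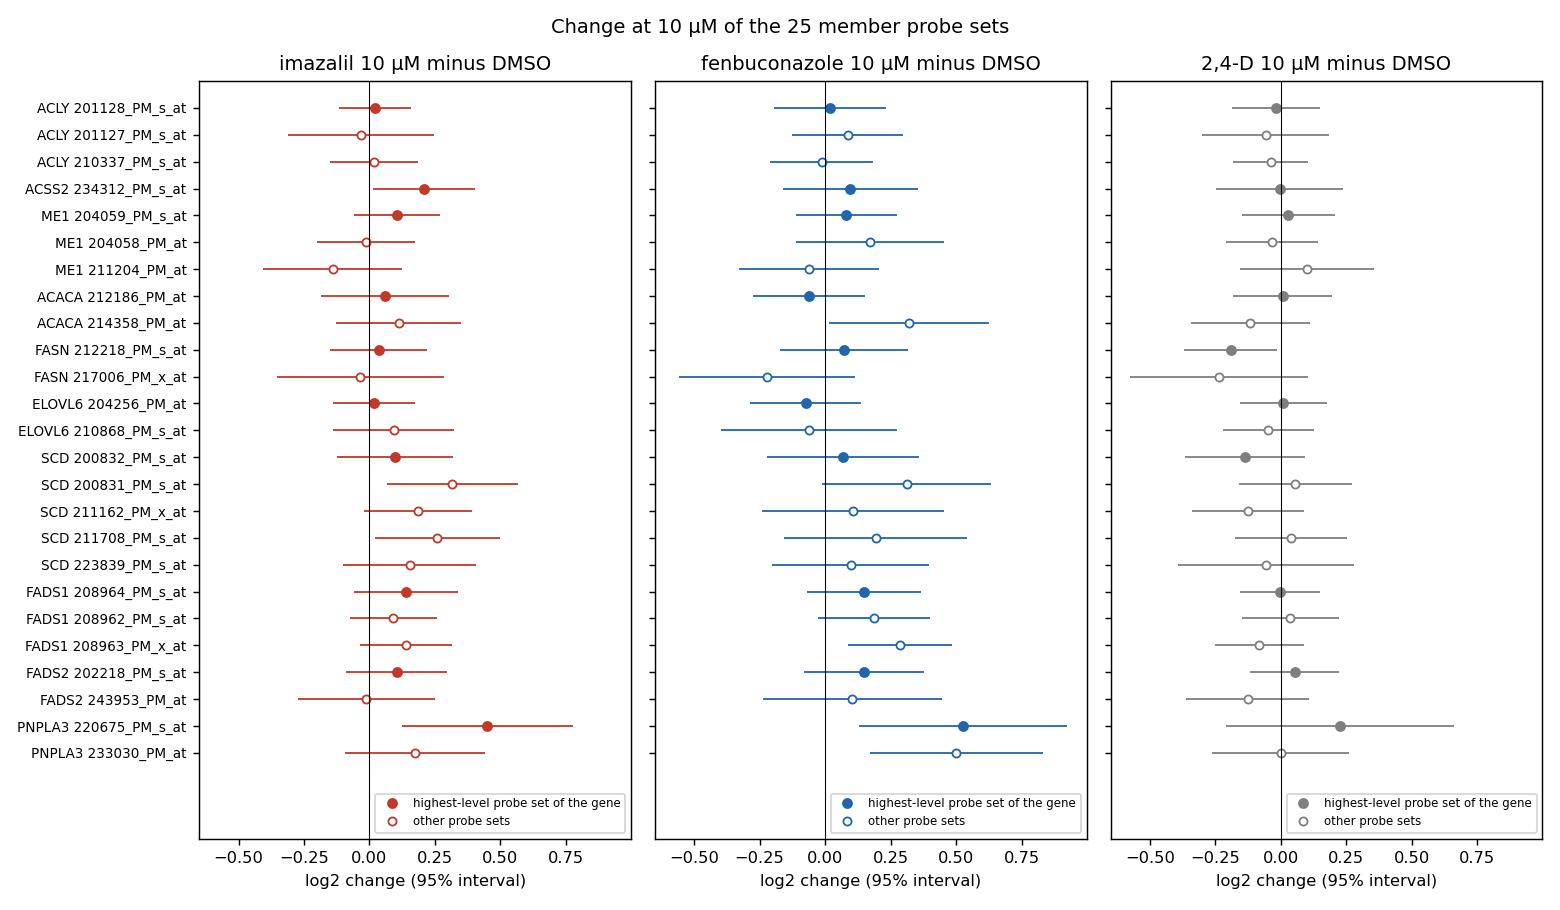
Change in log2 level at 10 µM minus DMSO (x axis) of the 25 member probe sets (y axis) with imazalil, fenbuconazole and 2,4-D; points are limma estimates, lines 95% intervals, filled points the highest-level probe set of each gene. PNPLA3 220675_PM_s_at lies farthest right with all 3 chemicals, at 0.45 with imazalil, 0.53 with fenbuconazole and 0.23 with 2,4-D, and most intervals cover 0.

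An unadjusted p under 0.05 with a higher level was seen for 4 of 25 member probe sets with imazalil, against 2.44% of all probe sets, for 4 of 25 with fenbuconazole, against 3.37%, and for 0 of 25 with 2,4-D, against 1.71%. With 2,4-D 1 of 25 was lower at that level, against 2.14%. The 3 arrays at 10 µM lay wholly above the 3 DMSO arrays for 4 of 25 probe sets with imazalil (4.31% of all probe sets), 4 of 25 with fenbuconazole (5.39%) and 0 of 25 with 2,4-D (3.22%). These higher counts come from few genes, mostly PNPLA3, SCD and FADS1, which hold several probe sets each. The others were ACSS2 with imazalil and ACACA with fenbuconazole at the unadjusted p, and ACLY with fenbuconazole by lack of overlap. No call after adjustment stands behind these counts.

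PNPLA3, known as a lipase of lipid droplets, had the largest shift. With imazalil its probe set 220675_PM_s_at had log2 levels of 5.03, 5.26 and 5.26 at 10 µM, against 4.83, 5.01 and 4.35 with DMSO. The groups did not overlap, and the third DMSO array stood lowest. The change was 0.45 (SE 0.16, unadjusted p 0.00896, adjusted p 0.949 by limma), and 0.26 without DMSO replicate 3. With fenbuconazole the same probe set had 4.05, 4.16 and 4.22 at 10 µM, against 3.46, 3.90 and 3.48 with DMSO, again without overlap. That is a change of 0.53 (SE 0.19, unadjusted p 0.0110, adjusted p 0.565 by limma). The second probe set, 233030_PM_at, had 3.92, 3.59 and 3.75 at 10 µM fenbuconazole, against 3.27, 3.13 and 3.36 with DMSO, a change of 0.50 (adjusted p 0.507). With imazalil this second probe set overlapped between the groups, with 5.04, 4.80 and 4.57 at 10 µM, against 4.56, 4.71 and 4.62 with DMSO. With 2,4-D 220675_PM_s_at had 5.09, 5.43 and 4.87 at 10 µM, against 4.89, 5.37 and 4.45 with DMSO. Here the groups overlapped, with a change of 0.23 (adjusted p 1.0).

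For SCD, the desaturase that makes oleate and palmitoleate, the size of the shift varied by probe set. With imazalil, 200831_PM_s_at had 9.40, 9.56 and 9.37 at 10 µM, against 9.17, 9.28 and 8.93 with DMSO. All 3 treated arrays were above all 3 vehicle arrays, by 0.32 on average (SE 0.12, unadjusted p 0.0152, adjusted p 0.994 by limma), and by 0.22 without DMSO replicate 3. With fenbuconazole it had 8.51, 8.85 and 8.67 at 10 µM, against 8.46, 8.52 and 8.13 with DMSO, so that the lowest treated array reached the range of the vehicle. The change was 0.31 (adjusted p 0.727), and 0.19 without DMSO replicate 3. The brightest SCD probe set, 200832_PM_s_at, shifted less, with 11.2, 11.3 and 11.2 at 10 µM imazalil, against 11.1, 11.1 and 11.2 with DMSO, a change of 0.10 (95% interval -0.13 to 0.32). The 5 SCD probe sets had changes of 0.10 to 0.32 with imazalil, of 0.07 to 0.31 with fenbuconazole and of -0.14 to 0.06 with 2,4-D.

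**Figure D2:**
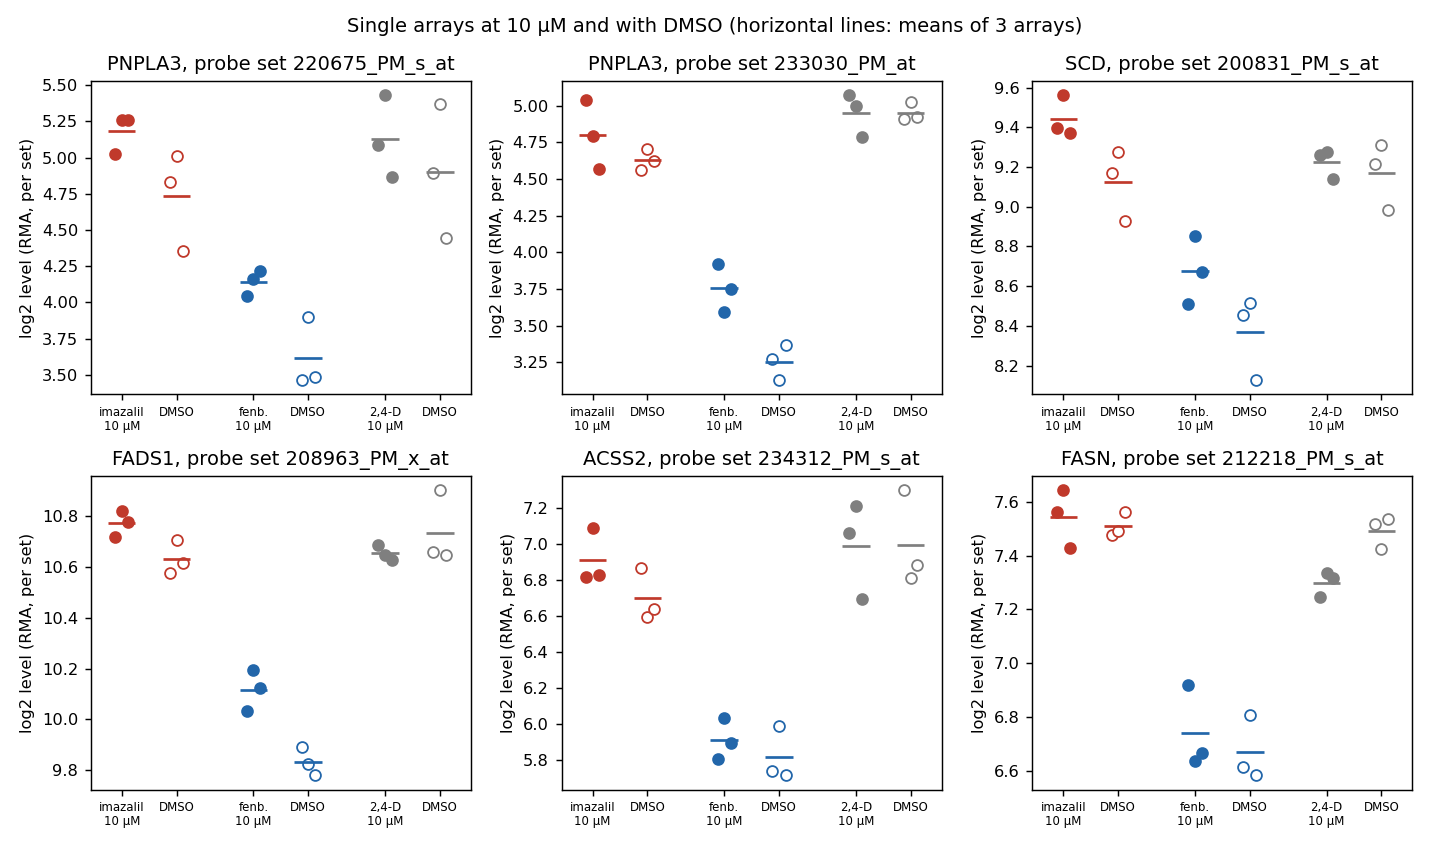
Log2 level (y axis) of each array at 10 µM (filled) and with DMSO (open) for 6 probe sets with imazalil, fenbuconazole (fenb.) and 2,4-D (x axis); horizontal lines are means of 3 arrays, and levels of different sets were normalised separately. The 3 arrays at 10 µM fenbuconazole lie above the vehicle arrays for both PNPLA3 probe sets and for FADS1, and the 3 arrays at 10 µM 2,4-D lie below the vehicle arrays for FASN.

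All 3 probe sets of FADS1 averaged above DMSO with both azoles, and none passed. Probe set 208963_PM_x_at had 10.0, 10.2 and 10.1 at 10 µM fenbuconazole, against 9.89, 9.82 and 9.78 with DMSO, without overlap. The change was 0.29 (SE 0.10, unadjusted p 0.00613, adjusted p 0.529 by limma). With imazalil it had 10.72, 10.82 and 10.78 at 10 µM, against 10.58, 10.71 and 10.62 with DMSO, also without overlap, and the change was 0.14 (adjusted p 1.0). The brightest FADS1 probe set, 208964_PM_s_at, had a change of 0.14 with imazalil, 0.15 with fenbuconazole and -0.00 with 2,4-D. Without replicate 2 at 10 µM it was 0.04 with imazalil and 0.05 with fenbuconazole. FADS2, whose gene lies beside FADS1 on chromosome 11, had 8.38, 8.55 and 8.52 at 10 µM fenbuconazole, against 8.28, 8.45 and 8.28 with DMSO in its brighter probe set, 202218_PM_s_at. The groups overlapped, and the change was 0.15 (adjusted p 0.84), with 0.10 for imazalil, or 0.04 there without replicate 2 at 10 µM.

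Of the enzymes that supply the pathway, ACSS2 stood apart with imazalil. It had 6.82, 7.09 and 6.83 at 10 µM, against 6.87, 6.60 and 6.64 with DMSO, where 1 vehicle array lay within the treated range. The change was 0.21 (SE 0.10, unadjusted p 0.0385, adjusted p 1.0 by limma), and 0.12 without imazalil replicate 2. With fenbuconazole ACSS2 had a change of 0.10 and with 2,4-D of -0.01. ACLY had a change of 0.02 with each azole and of -0.02 with 2,4-D, with 95% intervals that ran from -0.19 at the lowest to 0.23 at the highest. ME1 had a change of 0.11 with imazalil (0.02 without DMSO replicate 1), 0.08 with fenbuconazole and 0.03 with 2,4-D. With fenbuconazole its differences between same-numbered arrays, 10 µM minus DMSO, were 0.27, -0.02 and -0.02.

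For the synthesis enzymes themselves the values against DMSO were nearer 0 with the azoles in the brighter probe sets. ACACA, which catalyses the committed step, had a change of 0.06 with imazalil and -0.06 with fenbuconazole. Its dimmer probe set 214358_PM_at had 0.11 with imazalil and 0.32 with fenbuconazole (adjusted p 0.701 by limma). With fenbuconazole that probe set had 4.81, 4.95 and 5.17 at 10 µM, against 4.94, 4.27 and 4.76 with DMSO, overlapping groups. FASN had a change of 0.04 with imazalil and 0.07 with fenbuconazole. Its dimmer probe set 217006_PM_x_at, near the array median, had -0.03 with imazalil and -0.22 with fenbuconazole. With 2,4-D, the brighter FASN probe set had 7.24, 7.34 and 7.32 at 10 µM, against 7.52, 7.42 and 7.54 with DMSO. All 3 treated arrays thus lay below the vehicle. That change of -0.19 (SE 0.09, unadjusted p 0.0349, adjusted p 1.0 by limma) was the largest among the 10 genes with 2,4-D except that of PNPLA3. Against the 24 arrays at the other 8 concentrations of 2,4-D, FASN was at 7.30 and 7.35, a change of only -0.05 (unadjusted p 0.456 by limma). ELOVL6, the elongase of palmitate, had a change of 0.02 with imazalil, -0.07 with fenbuconazole and 0.01 with 2,4-D.

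The other 8 concentrations of the same chemical, with 24 arrays, served as a second reference for 10 µM. No member passed here either, where 0.011% of all probe sets passed with imazalil (6), 0.00366% with fenbuconazole (2) and 0.00183% with 2,4-D (1). Against this reference 10 of 10 genes were higher with imazalil (median 0.12), 8 of 10 with fenbuconazole (median 0.12) and 7 of 10 with 2,4-D (median 0.03). Over all 19774 genes, 9697 were higher with imazalil, 9612 with fenbuconazole and 9705 with 2,4-D, and each median was 0.00 in size to 2 decimals. The fenbuconazole median was 0.04 without its replicate 2 at 10 µM, and the imazalil median was 0.07 without its own replicate 2. An unadjusted p under 0.05 with a higher level was seen for 3 of 25 member probe sets with imazalil, against 2.82% of all, for 9 of 25 with fenbuconazole, against 2.94%, and for 0 of 25 with 2,4-D, against 2.67%. The 9 belonged to FADS1, FADS2, PNPLA3, SCD, FASN and ACLY. The arrays at 10 µM are the same as in the comparison with DMSO, so the 2 comparisons are not independent.

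FADS2 gave the smallest p of any member in this comparison. Probe set 202218_PM_s_at averaged 8.48 ± 0.09 at 10 µM fenbuconazole (SD, n = 3) and 8.19 ± 0.14 at the other concentrations (SD, n = 24), and 4 of those 24 arrays reached the lowest array at 10 µM. The change was 0.29 (SE 0.08, adjusted p 0.445 by limma). Its second probe set, 243953_PM_at, had a change of 0.35 (adjusted p 0.683). PNPLA3 at 10 µM was above the other concentrations by 0.30 with fenbuconazole and 0.28 with imazalil, less than against DMSO. ACSS2 averaged 6.91 ± 0.16 at 10 µM imazalil and 6.70 ± 0.10 at the other concentrations, a change of 0.22 (unadjusted p 0.00571, adjusted p 0.741 by limma), and 0.13 without replicate 2 at 10 µM. FASN at 10 µM was above the other concentrations by 0.19 with imazalil (unadjusted p 0.0107) and by 0.20 with fenbuconazole (unadjusted p 0.0328), the last of these 0.11 without replicate 1 at 10 µM. ELOVL6 lay on the other side with fenbuconazole, at 8.29 ± 0.08 at 10 µM and 8.44 ± 0.13 at the other concentrations, a change of -0.15 (adjusted p 0.861 by limma). Its dimmer probe set, 210868_PM_s_at, was at -0.19 with fenbuconazole, 0.02 with imazalil and -0.15 with 2,4-D (unadjusted p 0.0232, adjusted p 0.749 by limma). With 2,4-D, 1 of 25 member probe sets was lower at an unadjusted p under 0.05, against 1968 of 54613 overall. The brighter ELOVL6 probe set was at -0.05 there.

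**Figure D3:**
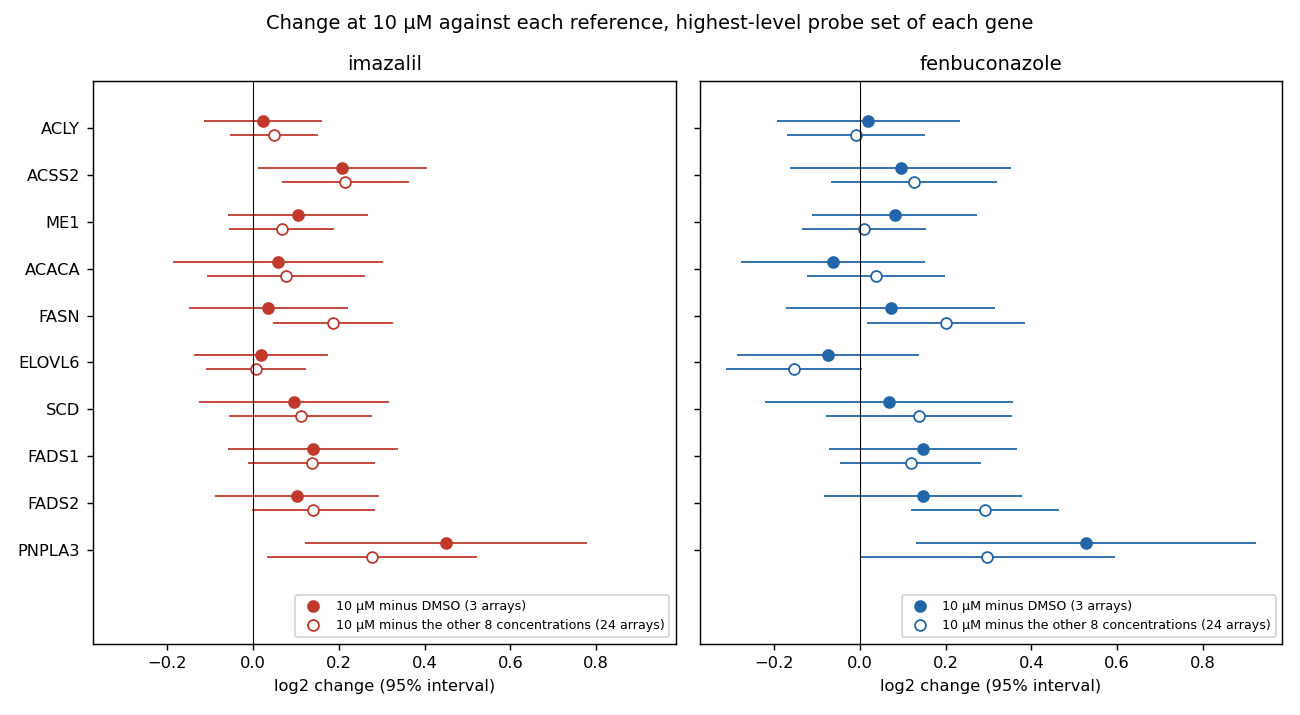
Change in log2 level at 10 µM (x axis) of the highest-level probe set of each gene (y axis) with imazalil and fenbuconazole, against 3 DMSO arrays (filled) and against 24 arrays at the other 8 concentrations (open); lines are 95% intervals, and both changes use the same arrays at 10 µM. FASN and FADS2 lie farther right against the other concentrations than against DMSO, PNPLA3 lies farther left, and ELOVL6 lies left of 0 with fenbuconazole.

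At the 8 lower concentrations no member probe set passed with any chemical, and the smallest adjusted p was 0.381 (limma), for FASN 217006_PM_x_at at 0.03 µM fenbuconazole, a probe set near the array median. At 0.001 µM imazalil 8 of 10 genes and 20 of 25 member probe sets were above DMSO, as many probe sets as at 10 µM, with a median change of 0.05 over the genes. From 0.003 to 3 µM imazalil 1 to 6 of 10 genes were above, and below 10 µM fenbuconazole 4 to 6 of 10. The median change of the 10 genes against DMSO lay between -0.04 and 0.05 with imazalil below 10 µM, between -0.06 and 0.03 with fenbuconazole and between -0.07 and 0.00 with 2,4-D. The mean of the 10 genes, centred on its set, was highest at 10 µM among the 10 groups with imazalil (0.11) and with fenbuconazole (0.09), and stood at 0.02 with 2,4-D at 10 µM, where DMSO also had 0.02. FASN had changes of -0.24, -0.27 and -0.22 against DMSO with imazalil at 0.003, 0.01 and 0.03 µM (unadjusted p 0.0147, 0.00567 and 0.0230, none passing in limma), and of 0.04 at 10 µM. With 2,4-D it had the lowest value at 3 µM, -0.21. Both sets share the vehicle arrays, so these values rest on the same 3 arrays. FADS2 at 0.03 µM fenbuconazole was at 8.06 ± 0.10 and with DMSO at 8.34 ± 0.10 (SD, n = 3 each), its lowest level in that set (unadjusted p 0.0197, adjusted p 0.454 by limma). PNPLA3 was uneven at low concentrations, with mean log2 levels of 4.70, 5.02, 4.77, 5.11, 4.86, 4.91, 4.76, 5.10 and 5.18 over the 9 concentrations of imazalil, lowest first, and 4.73 with DMSO. A moderated F test over all 9 concentrations gave an adjusted p of 1 for every member and chemical, and called 0 probe sets (1846 at an unadjusted p under 0.05 with imazalil, 2582 with fenbuconazole and 2060 with 2,4-D).

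**Figure D4:**
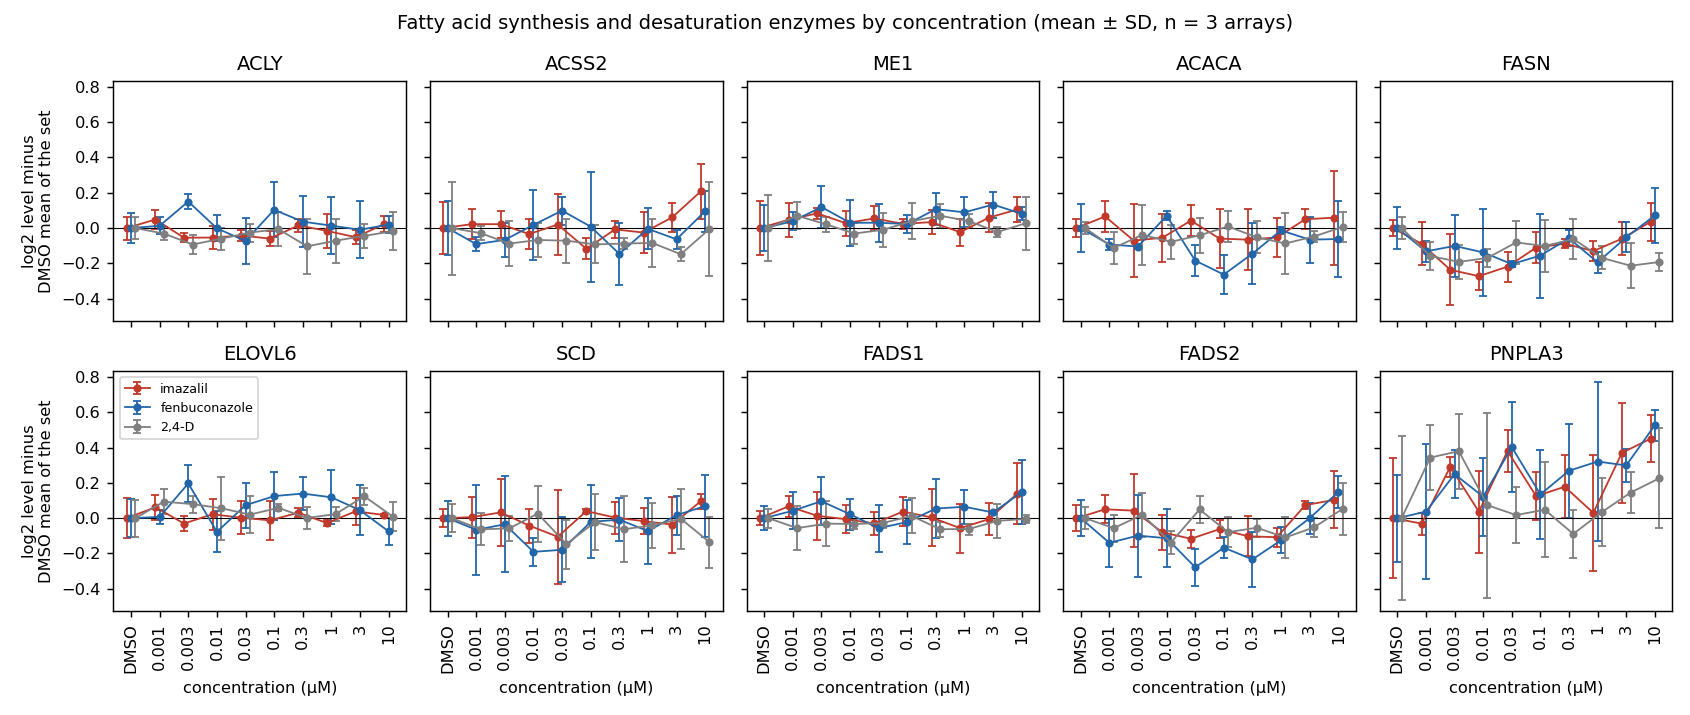
Log2 level minus the DMSO mean of the set (y axis) by concentration (x axis, µM, evenly spaced steps) for the highest-level probe set of each gene, as mean ± SD of 3 arrays with imazalil, fenbuconazole and 2,4-D. FASN lies below its DMSO mean at most concentrations, PNPLA3 has the widest bars, and ACLY, ME1 and FADS1 stay close to their DMSO means, at most 0.15 away.

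A slope on the log10 of concentration, fitted over the 27 treated arrays of each chemical, asked whether levels followed the dose. No member passed, where 0.00183% of all probe sets passed with imazalil (1), and 0% with fenbuconazole and with 2,4-D. A positive slope with an unadjusted p under 0.05 was found for 2 of 25 member probe sets with imazalil, against 2.61% of all, for 7 of 25 with fenbuconazole, against 2.11%, and for 0 of 25 with 2,4-D, against 1.71%. The 7 were 3 of SCD, 2 of FADS1, 1 of FADS2 and 1 of PNPLA3. The steepest was PNPLA3 220675_PM_s_at with 0.08 per 10-times step in concentration (SE 0.03, adjusted p 1.0 by limma), and the 3 SCD probe sets had slopes of 0.06 to 0.07. With imazalil the 2 were FASN, at 0.05 per step (SE 0.02, unadjusted p 0.00982, adjusted p 0.986 by limma), and PNPLA3 at 0.06. ME1 211204_PM_at had a slope of -0.07 with imazalil (adjusted p 0.986), but it lies under the array medians.

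The compounds were compared at each of the 9 matched concentrations after subtracting each set's own DMSO mean, which made 27 comparisons over the 3 pairs, each with p-values adjusted over all probe sets. Imazalil and fenbuconazole differ, among other things, in their azole ring, an imidazole in imazalil and a triazole in fenbuconazole. At 10 µM no member passed the threshold between imazalil and fenbuconazole, where 0.00183% of all probe sets did (1). The differences of the 10 genes, imazalil minus fenbuconazole, ran from -0.08 for PNPLA3 to 0.12 for ACACA. Their 95% intervals were wide, -0.64 to 0.49 for PNPLA3, -0.32 to 0.37 for SCD and -0.26 to 0.24 for FADS1, so differences of these sizes were not detectable with 3 arrays. Against 2,4-D, 0% of all probe sets passed for either azole at 10 µM, and the differences were mostly positive. The imazalil and 2,4-D sets share their vehicle arrays, which the fit counted as separate, so its errors for this pair were too large. At 10 µM fewer probe sets were higher at an unadjusted p under 0.05 in this pair than in either other pair. The absence of calls between imazalil and 2,4-D therefore cannot show that the 2 did not differ. The 10 genes were at -0.08 to 0.30 for fenbuconazole minus 2,4-D and at 0.01 to 0.23 for imazalil minus 2,4-D. The smallest p was that of FADS1 208963_PM_x_at, with a change of 0.29 with fenbuconazole and -0.08 with 2,4-D (difference 0.37, 95% interval 0.14 to 0.60, adjusted p 0.753 by limma). For PNPLA3 220675_PM_s_at the difference, fenbuconazole minus 2,4-D, was 0.30 (95% interval -0.27 to 0.87). At the lower concentrations no member passed in any of the 3 pairs, with adjusted p-values of 0.67 and above. The limit from the shared vehicle arrays holds there too for imazalil minus 2,4-D.

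Genes around the pathway were taken from 4 lists, and none passed the threshold in any comparison of 10 µM, where the smallest adjusted p of a gene outside the 10 members was 0.734 with fenbuconazole and 0.856 with imazalil against DMSO (limma). The control of lipogenic transcription was represented by 9 of 10 genes. With imazalil 6 were above and 3 below DMSO (median 0.05), and with fenbuconazole 5 and 4 (median 0.02). SREBF1, which encodes an SREBP factor, had 7.41, 7.52 and 7.20 at 10 µM imazalil, against 7.12, 7.35 and 6.90 with DMSO, overlapping groups with a change of 0.26 (unadjusted p 0.0847). INSIG2 (0.14) and MLXIPL (-0.22), which encodes the carbohydrate-responsive factor ChREBP, did not pass either. With fenbuconazole the smallest p-values were those of SREBF2 (0.28), MBTPS1 (-0.17), the protease that cleaves SREBP precursors, and INSIG1 (0.24), their retention protein. SREBF2 had 5.83, 5.51 and 5.36 at 10 µM, against 5.42, 5.09 and 5.34 with DMSO. Against the other 8 fenbuconazole concentrations, SREBF2 was at 0.11, MBTPS1 at -0.17 and INSIG1 at 0.19, and the list had 6 genes above and 3 below (median 0.03). None of these 6 genes passed. SREBF1 was at 0.14 without DMSO replicate 3 and SREBF2, against DMSO, at 0.15 without fenbuconazole replicate 1.

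Other enzymes of elongation and desaturation, 13 of 14 measured, had medians of 0.02 with imazalil (8 above, 5 below) and 0.01 with fenbuconazole (9 above, 4 below). The smallest p-values with imazalil were those of HACD4 (0.36), SCD5 (-0.10) and FADS3 (0.10). With fenbuconazole they were those of FADS3 (0.27), HACD2 (-0.17) and ELOVL5 (0.10). None of these passed. HACD4 had 3.64, 3.77 and 4.27 at 10 µM imazalil, against 3.63, 3.65 and 3.33 with DMSO, overlapping groups in which 1 treated array stood highest. FADS3, a relative of the desaturases, had 6.37, 6.37 and 6.44 at 10 µM fenbuconazole, against 6.18, 6.17 and 6.03 with DMSO, without overlap. Against the other fenbuconazole concentrations FADS3 was at 0.29, HACD2 at -0.10 and ELOVL5 at 0.02, with 6 genes of the list above and 7 below (median -0.01). With imazalil against DMSO, FADS3 was at -0.10 without DMSO replicate 3 and SCD5 at 0.01 without replicate 3 at 10 µM. The supply of citrate, acetate and NADPH, 8 of 10 measured, had 7 genes above and 1 below DMSO with each azole, with medians of 0.05 for imazalil and 0.10 for fenbuconazole. Its smallest p-values were those of ACO1 (0.11), IDH1 (0.09) and PGD (0.07) with imazalil and of ME2 (0.12), ACSS1 (-0.14) and ACO1 (0.10) with fenbuconazole, all without a call. Against the other fenbuconazole concentrations ME2 was at 0.08, ACSS1 at -0.03 and ACO1 at 0.04, again with 7 genes above and 1 below (median 0.06).

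Genes for the use of acyl-CoA and for mitochondrial fatty acid synthesis, 15 of 17 measured, were 8 above and 7 below DMSO with imazalil (median 0.01) and 4 above and 11 below with fenbuconazole (median -0.04). ACACB, the acetyl-CoA carboxylase of the mitochondrial surface whose product restrains fatty acid oxidation, had 5.60, 5.57 and 5.68 at 10 µM imazalil, against 6.04, 5.93 and 6.10 with DMSO. The groups did not overlap, and the change of -0.40 (SE 0.12, unadjusted p 0.00278, adjusted p 0.856 by limma) was the largest of any gene in the 4 lists with imazalil against DMSO. Against the other imazalil concentrations it was -0.15 (unadjusted p 0.125). ACACB stood at -0.05 with fenbuconazole and -0.17 with 2,4-D against DMSO, the last on the shared vehicle arrays, and at 0.27 with fenbuconazole (unadjusted p 0.0384) and 0.07 with 2,4-D against the other concentrations. OXSM, the mitochondrial ketoacyl synthase, was at -0.17 with imazalil and -0.19 with fenbuconazole. ACSL1 was at 0.20 with imazalil and -0.23 with fenbuconazole, and LPIN1 at 0.14 with fenbuconazole, none of them passing. The groups of ACSL1 overlapped with both azoles. In the fenbuconazole set it lay near the array medians, with 3.01, 2.87 and 2.63 at 10 µM, against 2.92, 2.92 and 3.35 with DMSO. Against the other fenbuconazole concentrations OXSM was at -0.16, ACSL1 at -0.10 and LPIN1 at 0.10, and 7 genes of the list were above and 8 below (median -0.02).

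Profiles were compared over the 30 group means, each set centred, as a description. Among 12399 other genes kept by a filter on level, those most like the mean of the 10 members were RAB33A (r 0.80), NKX2-2 (r 0.78), LSS (r 0.75), CES1 (r 0.75) and XG (r 0.74). LSS encodes lanosterol synthase of the cholesterol pathway, NKX2-2 a homeobox factor that marks Ewing sarcoma, and CES1 a carboxylesterase. With imazalil their changes at 10 µM minus DMSO were 0.41, 0.16, 0.13, 0.08 and 0.28. With fenbuconazole they were 0.33, 0.13, 0.24, 0.08 and 0.30, and with 2,4-D 0.07, 0.00, -0.09, 0.02 and 0.03. These groups were among the 30 group means used to pick the genes, so the changes are no separate evidence of likeness. Within the members, the correlation of each gene with the mean of the other 9 was highest for FADS1 (r 0.72) and FADS2 (r 0.60) and lowest for ELOVL6 (r -0.11). The points share normalisation within a set and, for imazalil and 2,4-D, the vehicle arrays.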

How the data were processed

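Total RNA of A673 cells, plated at 26000 cells per well, was hybridised to Affymetrix HT HG-U133+ PM arrays. The authors deposited log2 values, 1 per probe set and array, made by robust multi-array averaging (RMA) in Partek on each chemical's 30 columns separately. Their versions are not given in the sources used here. RMA includes background correction and quantile normalisation, done before deposit, which removes a small shift shared by most transcripts. The 90 deposited columns held 54715 probe sets, and the 102 that are the manufacturer's controls were dropped. The number of arrays limits the precision. Symbols came from the platform annotation, updated by gene identifier.

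Each chemical was fitted with limma 3.58.1 in R 4.3.3 (lmFit, contrasts.fit, eBayes, data.table version 1.17.8) over its 30 columns, with no block, with Benjamini-Hochberg adjustment over all probe sets of a contrast. Slopes used the 27 treated arrays. Pairs of compounds were fitted over 90 columns, in which shared vehicle arrays count as separate arrays. This makes the errors too large for imazalil minus 2,4-D. The comparisons of 10 µM with DMSO and with the other concentrations were tried on data simulated from the imazalil set. The simulated noise was independent between arrays, without an effect of the replicate number, and slopes and pairs were not tried. A gene was represented by its probe set with the highest mean over 90 columns. Named were all 10 members, any gene past the threshold, otherwise per list the 3 genes with the smallest unadjusted p for each azole at 10 µM, and the 5 most alike profiles. The members and lists were chosen with earlier results of these data known. Alternatives were a block for the replicate number, a filter on dim probe sets, eBayes with trend and robust, equal array medians, repeated quantile normalisation, own other concentrations as reference, and single arrays left out. Python 3.11.15, pandas 2.3.3, numpy 2.4.6 and matplotlib 3.10.9 were used for tables and figures.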

Additional observations from a re-analysis of the deposited data

How the results depend on the processing

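No member passed the threshold under any alternative run, and the smallest adjusted p was 0.244, for FADS2 with fenbuconazole against the other concentrations under the replicate block. The block, the filter on dim probe sets and eBayes with trend and robust cannot alter a log2 change here. The totals that follow count them too, so they overstate how stable the signs were. Over the members and list genes named, 5 of 330 values reversed with fenbuconazole and 8 of 330 with imazalil against DMSO. Against the other concentrations these were 5 of 144 and 2 of 144. The reversed values include FADS3 (0.10) and SCD5 (-0.10) with imazalil against DMSO, as large as the median change of the 10 genes. ACACA (0.08) with imazalil against the other concentrations is also among them. The causes were not tested.

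Counts of probe sets passing moved as follows, with no member among them. Fenbuconazole against DMSO, 0 as reported, gave 4 with the replicate block, 3 without dim probe sets, 1 with trend and robust, 6 with equal medians, 5 with repeated quantile normalisation and 0 to 3 with single arrays left out. Against the other concentrations, fenbuconazole (2) gave 21 with the block, 15 with trend and robust and 4 with equal medians. Its slope (0) gave 2 without dim probe sets and 1 with repeated quantile normalisation. Imazalil against DMSO (0) gave 2 with the block and 4 with trend and robust. Against the other concentrations (6) it gave 11 with the block and 0 to 5 with single arrays left out, with 0 without replicate 2. Its slope (1) gave 2 with the block and 2 with trend and robust. For 2,4-D against the other concentrations (1), repeated quantile normalisation gave 0 and single arrays left out 0 to 7, and its lower concentrations gave 1 with the block. With own other concentrations as reference, the pairs gave 3 (imazalil and fenbuconazole), 1 (fenbuconazole and 2,4-D) and 2 (imazalil and 2,4-D). With the block the last 2 pairs gave 2 and 1. With single arrays left out the 3 pairs gave 0 to 1, 0 to 4 and 0 to 1.

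Signs that turned were as follows. ME1 with fenbuconazole against the other concentrations became -0.0041 with equal medians, and ACLY 0.0080 with repeated quantile normalisation. FADS1 with 2,4-D against DMSO became 0.0113 with repeated quantile normalisation. With own other concentrations as reference, imazalil minus fenbuconazole became -0.027 for SCD and 0.0182 for FADS1. Leaving out single arrays gave ranges that cross 0. Against DMSO with fenbuconazole these were -0.0179 to 0.1407 (FASN), -0.1513 to 0.0567 (ACACA) and -0.0045 to 0.0676 (ACLY). Against the other concentrations they were -0.0112 to 0.0250 (ME1), -0.0246 to 0.0190 (ACLY) and -0.0515 to 0.1565 (ACACA). With imazalil against DMSO they were -0.0929 to 0.1549 (ACACA), -0.0130 to 0.0933 (FASN), -0.0041 to 0.0586 (ACLY), -0.1649 to 0.0107 (SCD5), -0.0465 to 0.0562 (ELOVL6), -0.0706 to 0.0616 (FADS2 243953_PM_at) and -0.0986 to 0.2432 (FADS3). Against the other concentrations they were -0.0747 to 0.1731 (ACACA) and -0.0064 to 0.0222 (FADS2 243953_PM_at). With 2,4-D they were -0.0203 to 0.0267 (FADS1) and -0.0037 to 0.4600 (PNPLA3). For imazalil minus fenbuconazole they were -0.1053 to 0.0926 (FADS1), -0.1252 to 0.0006 (PNPLA3) and -0.0728 to 0.0833 (SCD).

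The labels do not say that a replicate number marks a batch, though the methods describe the replicates as separate batches of cells. Deviations of same-numbered arrays had a mean r of 0.042 with fenbuconazole, 0.0689 with imazalil and 0.0781 with 2,4-D, with some pairs below 0. Even so, 24, 28 and 30 of 30 arrays, in that order, were nearest to an array of another group that shared their number. By this measure the numbers grouped the arrays, and the main p-values, fitted with no block, leave that out. A serial number in the sample descriptions runs in 1 unbroken stretch per replicate number. Leaving out 1 array thus leaves a number without its partner. For PNPLA3 220675_PM_s_at, same-numbered arrays at 10 µM and with DMSO differed by 0.19, 0.25 and 0.91 with imazalil, by 0.58, 0.26 and 0.74 with fenbuconazole and by 0.20, 0.06 and 0.42 with 2,4-D.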

Other observations

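The 10 genes also varied with the replicate number. In the imazalil set, the arrays of replicate 2 lay above their group means for 10 of 10 genes and those of replicate 1 for 0 of 10. In the 2,4-D set the counts were 10 and 1, and in the fenbuconazole set 9 and 2. The distance between the highest and lowest replicate number, averaged over 10 groups, was 0.0238 to 0.2165 on the log2 scale with imazalil, 0.0564 to 0.2375 with fenbuconazole and 0.0726 to 0.2078 with 2,4-D. It exceeded the range over the 10 groups for 4 of 10 genes with 2,4-D, for 1 with imazalil and for 0 with fenbuconazole. SCD had the widest distance with fenbuconazole and with 2,4-D, and ACACA with imazalil. Every group holds 1 array of each number, so a block for the number cannot change a difference between group means. The median change of the 10 genes at 10 µM against DMSO was therefore the same with and without it. It was 0.0997 with imazalil and 0.0763 with fenbuconazole, and this sameness carries no information about the part of the number.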
